A study of Mus musculus with 34 samples.

Results

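The livers examined here came from mice that had carried TGFα and c-Myc transgenes together and in which both transgenes had then been turned off by 4 weeks of doxycycline. They were set against control livers of mice with no transgene and 0 weeks of doxycycline. The 6 arrays compared, 3 for each group, were taken by sample title from a series of 34 arrays, which also holds livers with 1 transgene turned off, livers 12 weeks after the transgenes were turned off, and tumors. Each array set the RNA of 1 liver, labelled with Cy3, against a pool of liver RNA from C57BL/6 mice of both sexes, labelled with Cy5.

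The group is called the off livers below (TGFα and c-Myc, 4 weeks on doxycycline, biological replicates 1 to 3), and its counterpart the controls (no transgene, no doxycycline, biological replicates 1 to 3). The labels give the strain of the pooled reference only. The promoter that drove the transgenes, the strain, age and sex of the mice and the state of each liver before the transgenes were turned off are not given in the sources used here. Doxycycline and the history of the transgenes came together, so their parts in any difference cannot be told apart. Every value below is the log2 of the liver's signal over that of the reference pool, and every difference is off livers minus controls, so a difference of 1 is a 2-fold change.

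TGFα is a secreted ligand of the EGF receptor, which signals through RAS and ERK kinases to growth-related genes, and c-Myc is a transcription factor that drives ribosome production, metabolism and cell division. Mice that express both in hepatocytes are a classical model of liver cancer, in which the pair speeds tumor growth beyond either gene alone. Among the first genes to respond to growth factor signalling are the immediate early genes, such as Fos, Junb and Myc itself, which are also induced in liver by stress, handling and inflammation. Comparing livers in which the oncogenes were silenced with livers that never carried them asks how far expression has returned to the state of a normal liver.

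Not all arrays of the groups were alike. Off replicates 1 and 2 correlated at r = 0.86 over the genes tested, whereas off replicate 3 correlated with them at 0.14 and 0.17 and with the 3 controls at 0.07 to 0.11. The other liver arrays of the series correlated with their own groups at 0.46 to 0.81 on average. The reference channel of off replicate 3 correlated at 0.973 with those of the controls. In all 19 other liver arrays of the fit, 63 genes lay at least 1.5 above the reference and 45 at least 1.5 below it. In off replicate 3 the median of those genes was 0.16 and -0.06, and 43 and 34 of them lay within 0.5 of 0. Of these 108 genes, 89 were well above background in all 3 off livers. Ctse, an aspartic protease, read 3.82 and 3.02 in off replicates 1 and 2 and -0.16 in off replicate 3, against 3.26 to 4.23 in the controls. Gstp3, a glutathione transferase, read 2.87 and 2.63 in off replicates 1 and 2 and 0.44 in off replicate 3, against 3.83 to 4.29 in the controls. When any other of the 20 arrays was taken in place of off replicate 3, between 1 and 3 genes met the same limit in each direction. Whether that array reads the labelled liver was not tested, and values over all 3 off livers rest on it being so. Calls lost without off replicate 3, or with slide as a random block, are named with their groups of genes.

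**Figure D1:**
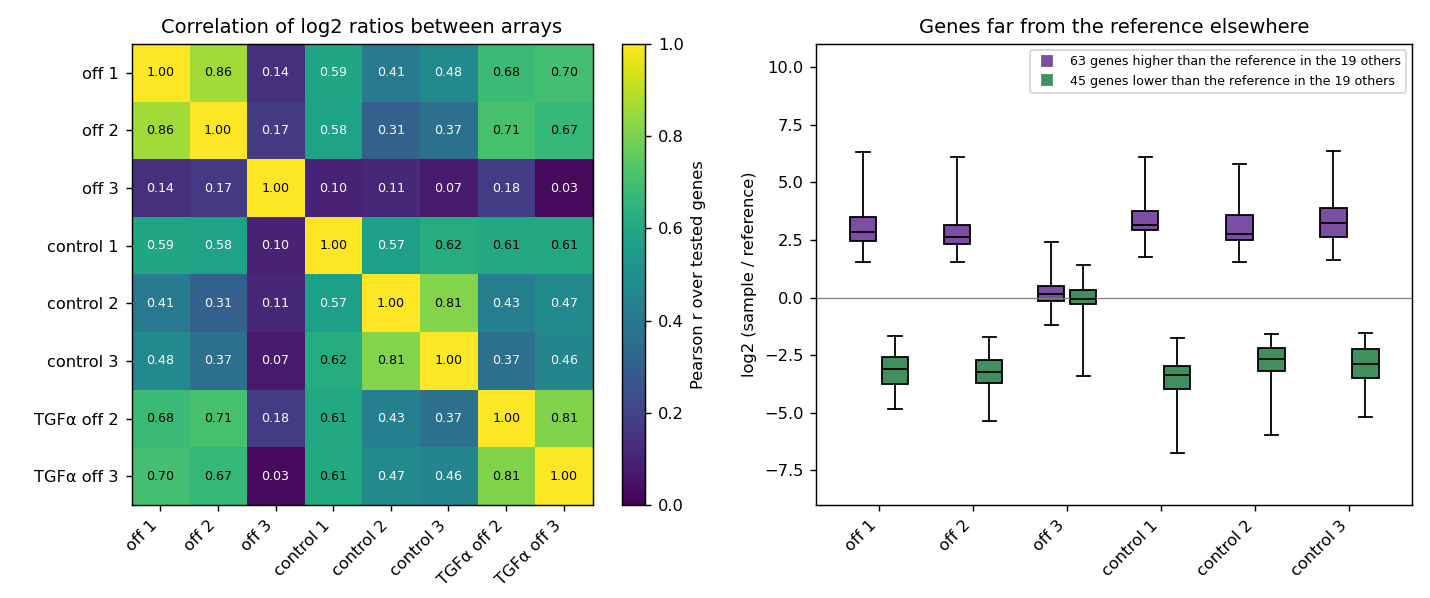
Left, Pearson correlation of log2 ratios over the genes tested, between the 3 off livers, the 3 controls and the 2 livers with TGFα alone turned off for 4 weeks that share a slide with off replicates 1 and 2. Off replicate 3 correlates at 0.18 or less with each of the others. Right, log2 ratios per array of the 63 genes that lie at least 1.5 above the reference in the 19 other liver arrays and of the 45 that lie at least 1.5 below it (boxes, quartiles and median, whiskers, full range). Off replicate 3 sits near 0 for both sets.

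Slides and scan days also ran with the groups. Off replicates 1 and 2 shared 1 slide and scan day with livers in which TGFα alone had been turned off, off replicate 3 was the only liver of the fit on its slide and day, and the 3 controls lay on 3 further slides and days. No slide or scan day held both groups, so those and the groups cannot be told apart. Xist, the RNA of the inactive X chromosome, read 2.09 and 1.89 in off replicates 1 and 2 and 1.72 in control 1, but -10.4 in off replicate 3 and -8.21 and -8.04 in controls 2 and 3. The Y-linked genes ran the other way, so that 2 of 3 off livers and 1 of 3 controls had the pattern of a female liver. Between 43.7% and 71.4% of probes were well above background on the liver arrays. Albumin, transthyretin, apolipoproteins A1 and B, fetuin A and transferrin lay at the 96.3 percentile of signal or higher in the off livers and at the 96.9 percentile or higher in the controls.

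Of 18142 genes tested, 1458 differed between the off livers and the controls at an adjusted p under 0.05, or 8.04% (limma over 20 liver arrays). Of those, 733 were higher in the off livers (4.04% of genes) and 725 lower (4.00%). Among the 1458, 62 were not well above background on any array of 1 of the groups, and so entered the test only through the other group. Counts for the lists of genes below stand beside these shares, and several lie near them. Without off replicate 3, 1079 of 18140 genes passed (5.95%), 551 higher (3.04%) and 528 lower (2.91%), and 758 genes passed both ways, each in the same direction. The count leaned on single arrays: leaving out control 3 left 195 genes and leaving out control 2 left 358. Without off replicate 3 the count was 89 when off replicate 1 was also left out and 32 when off replicate 2 was. Passing whichever of the 6 arrays was left out were 155 genes, 90 higher and 65 lower. With the 2 groups alone in the fit, no gene passed by limma and 4160 had an unadjusted p under 0.05, while 402 passed without off replicate 3. A fit of all 34 arrays took scan day as a block, an alternative added after the data were seen. There the groups are linked only through arrays left out of the main fit, tumors and 1 liver on a slide whose reference channel differed. In that fit 126 genes passed, of which 21 had passed without the block. Its differences rest on those linking arrays, and what turned their sign was not tested. Of 88 named genes that passed with all 3 off livers, 50 also passed without off replicate 3 and 38 did not. Off replicates 1 and 2 share a slide, and with slide as a random block (within-slide correlation 0.22) 40 of the 88 passed and 48 did not. With scan day as a block 3 of the 88 still did, among them Snhg1 and Elovl5, 60 did not and 25 turned in sign, among them Trp53inp1, Bbc3, Dnaja1, Bag3, Dnajb1, Dnajb9, Herpud1, Sqle, Slc10a1 and Dlk1. The median difference of all genes was -0.05, or -0.03 without off replicate 3. In 30.3% of genes the groups did not overlap, and without off replicate 3 in 45.9%. The p-values measure the spread between livers that the labels call biological replicates.

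The array has 3 probes for mouse Myc and 2 for Tgfa, and whether any of them reads the transgene is not given. At the brightest Myc probe the values were 2.06, 1.36 and 0.56 in the off livers, against 0.11, -0.23 and -0.67 in the controls. Every off liver lay above every control, and the difference was 1.59 ± 0.44 (SE), adjusted p = 0.0366, or 1.97 ± 0.45 (SE), adjusted p = 0.0234 without off replicate 3. A second Myc probe read 1.68, 1.37 and 0.71 in the off livers, against 0.08, 0.25 and -1.36 in the controls, a difference of 1.60 with an adjusted p of 0.0526 when every probe was tested. The third Myc probe read 0.39, -0.08 and -0.02 in the off livers, against -0.69, 0.88 and 0.67 in the controls, and the groups overlapped. The 3 TGFα/c-Myc tumors of the series averaged 0.47 at the first probe, 4.68 at the second and 3.09 at the third, against -0.26, -0.35 and 0.29 in the controls. Neither Tgfa probe passed, with differences of 0.44 and -0.21 and adjusted p-values of 0.586 and 0.676. The TGFα/c-Myc tumors averaged -1.62 and 0.17 at these 2 probes, against -0.78 and 0.93 in the controls. Neither probe was higher on average in tumors labelled as expressing the transgene, so these values cannot show whether it was off. Of 12 Myc network genes measured, Mlxip, a nuclear partner that senses sugar phosphates, rose with Myc (0.90 ± 0.25 (SE), adjusted p = 0.0365), and Mxd4, a repressor that competes with Myc for its partner Max, fell (-0.78 ± 0.16 (SE), adjusted p = 0.0134). A second Mxd4 probe differed by 0.13 and did not pass. With slide as a random block Myc and Mlxip did not pass.

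Of 18 immediate early genes measured, 5 rose (Fos, Junb, Fosl2, Zfp36 and Myc) and none fell, beside 4.04% of all genes that were higher, and their median difference was 0.81, or 0.88 without off replicate 3. Fos, a subunit of the AP-1 transcription factor, read 2.99, 1.74 and -0.05 in the off livers, against -1.78, -1.31 and -3.23 in the controls, a difference of 3.67 ± 0.93 (SE), adjusted p = 0.0287. Fos was high in off replicates 1 and 2 and lay between them and the controls in off replicate 3. It was well above background in 3 off livers and 2 controls. Junb, another AP-1 subunit, read 0.55, 0.76 and -0.74 in the off livers, against -1.11, -0.76 and -1.16 in the controls. At this brightest probe off replicate 3 stood just above the highest control. The difference was 1.20 ± 0.32 (SE), adjusted p = 0.0326 with all 3 off livers and 1.66 ± 0.24 (SE), adjusted p = 0.0028 without off replicate 3. A second Junb probe differed by 0.90 with all 3 off livers and did not pass. Off replicate 3 read -1.23 there, below the controls at -0.20 to 0.03. Zfp36, which binds and destabilises cytokine messages, read 0.27, 0.36 and 0.27 in the off livers, against -0.55, -0.42 and -0.74 in the controls, close together within each group (0.87 ± 0.24 (SE), adjusted p = 0.0353). The AP-1 subunit Fosl2 rose by 1.61 (adjusted p = 0.0166) at its brightest probe, while its other probe differed by -0.10 and did not pass. Egr1, a zinc finger factor of the same class, read 1.74, 0.90 and -2.45 in the off livers, against -0.25, -2.27 and -2.12 in the controls, and the groups overlapped. Klf2, a factor induced by blood flow in endothelium, was lower in each off liver than in each control, but its difference of -1.21 had an adjusted p of 0.17. Among 10 genes that ERK induces to restrain itself, such as Spry and Dusp genes, and among 10 of the EGF receptor family and its ligands, none passed by limma. Their median differences were 0.51 and 0.03. Zfp36 did not pass without off replicate 3 (adjusted p = 0.063), and with slide as a random block Fosl2 alone of the 5 passed. Errfi1, an inhibitor of the EGF receptor, was higher in each off liver than in each control, with a difference of 1.19 and an adjusted p of 0.0801.

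**Figure D2:**
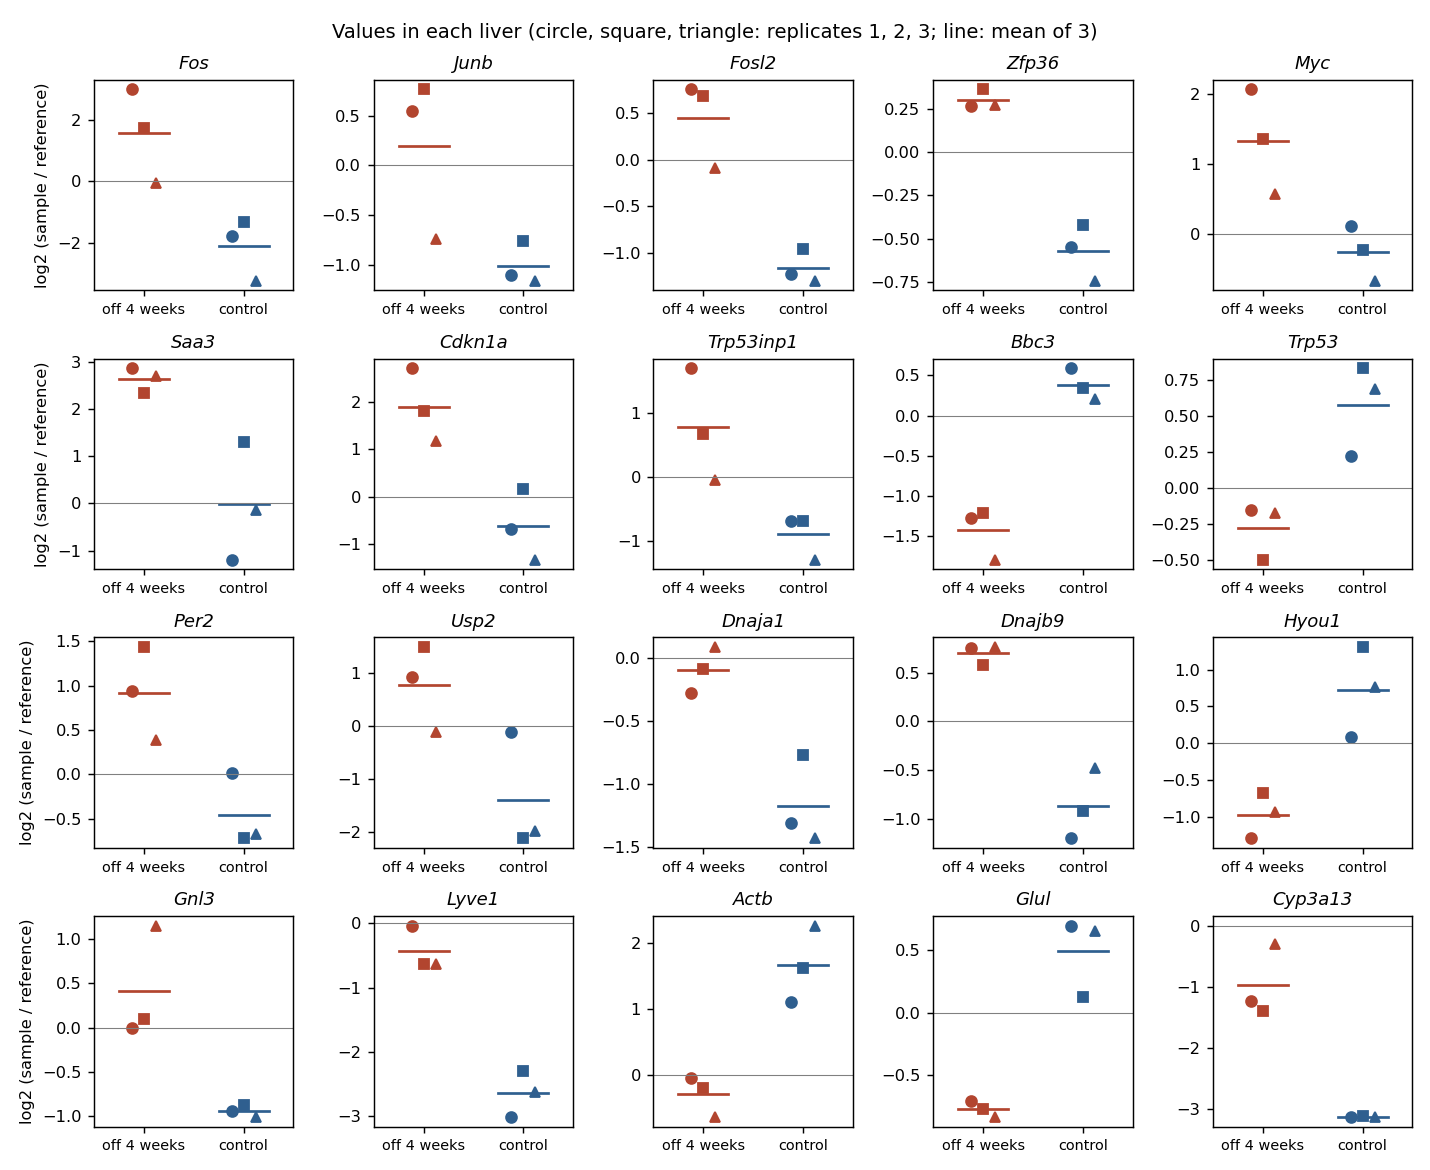
log2 ratio of liver to reference for 20 genes in each of the 3 off livers (left) and 3 controls (right), with the mean of each group as a line. Off replicate 3 (triangle) lies nearest the controls for Fos, Junb, Fosl2 and Trp53inp1 and with the other off livers for Saa3, Zfp36, Dnajb9 and Glul.

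None of 22 genes of the cell cycle and mitosis passed, and their median difference was -0.13, or -0.53 without off replicate 3. Mki67, the classical proliferation marker, differed by 0.18 (adjusted p = 0.909) and Ccna2, cyclin A, by 0.41 (adjusted p = 0.788). Of 24 DNA replication genes none passed with all 3 off livers, and Fen1 and Mcm10 fell without off replicate 3, with differences of -1.30 and -1.45 (adjusted p = 0.0267 and 0.0445). Ribosome biogenesis genes, a main class of c-Myc targets, gave 4 rises and no falls among 25, with a median difference of 0.24. Gnl3, nucleostemin of the nucleolus, read -0.01, 0.09 and 1.15 in the off livers, against -0.94, -0.88 and -1.02 in the controls. All off livers lay above all controls, and off replicate 3 was the highest (1.36 ± 0.26 (SE), adjusted p = 0.011). Rrs1, Nop58 and Wdr12, nucleolar factors of ribosome assembly, rose by 0.98, 1.00 and 0.73 (adjusted p = 0.0249, 0.0408 and 0.0377). Without off replicate 3, and with slide as a random block, only Gnl3 and Rrs1 of these 4 passed. The snoRNA host gene Snhg1 read 0.95, 1.34 and 0.63 in the off livers, against -2.58, -1.19 and -1.50 in the controls, with 1 control not well above background, and differed by 2.73 ± 0.37 (SE), adjusted p = 0.00269.

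Of 28 acute phase genes, 3 rose and none fell, with a median difference of 0.55, or 0.84 without off replicate 3. Saa3, a serum amyloid A protein made in inflammation, read 2.87, 2.34 and 2.70 in the off livers, against -1.19, 1.30 and -0.14 in the controls. The off livers lay within 0.53 of each other while the controls spread over 2.49, and the difference was 2.64 ± 0.48 (SE), adjusted p = 0.00871. Saa1 was saturated in Cy3 on all 3 off arrays, so its signal there is only a lower limit, and its ratio differed by 1.63 (adjusted p = 0.0434). Steap4, a metalloreductase induced by inflammatory cytokines, rose by 1.82 ± 0.48 (SE), adjusted p = 0.0332. Saa1 did not pass without off replicate 3 (adjusted p = 0.0995), nor did Saa1 or Steap4 with slide as a random block. The classical acute phase genes Hp, Fgb, Fgg, Hpx and Itih4 had differences between -0.27 and -0.01 and did not pass, and Hp, Fgg and Hpx were saturated in Cy3 on all 3 off arrays. Nfkbiz, an inducible regulator of NF-κB target genes that was singled out after its values were seen, read 1.92, 2.31 and 0.94 in the off livers, against -0.26, -0.23 and -0.29 in the controls. It passed whichever array was left out, with a difference of 1.98 ± 0.28 (SE), adjusted p = 0.00291. Cxcl1, a chemokine that draws neutrophils, read 4.87, 4.36 and 0.51 in the off livers, against 0.18, 0.70 and 0.61 in the controls. Cxcl1 in off replicates 1 and 2 stood far above the other 4 livers, and it passed only without off replicate 3 (4.12 ± 1.03 (SE), adjusted p = 0.0328), as did Socs3, the feedback inhibitor of IL-6 signalling (1.86 ± 0.41 (SE), adjusted p = 0.0211).

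Of 9 neutrophil markers measured, Csf3r, the receptor for G-CSF, rose by 0.99 and Retnlg by 2.05 (adjusted p = 0.0454 and 0.0479), and without off replicate 3 Retnlg and S100a8 passed. S100a8 read 3.43, 3.63 and 1.41 in the off livers, against 1.78, 1.32 and 1.11 in the controls. The median of the 9 markers was 2.44, 0.63 and 0.64 in the off livers, against 0.92, 0.26 and 0.20 in the controls, so it was highest in off replicate 1, and control 1 lay above off replicates 2 and 3. Ngp, a granule gene that did not enter the test, was well above background in none of the off livers and 2 of the controls. Whether neutrophils contributed to the inflammatory genes was not tested. In bulk liver, more cells of a type and more RNA per cell cannot be told apart. Of 27 interferon response genes Ddx58, a sensor of viral RNA, fell by 1.32 (adjusted p = 0.0365) at its brightest probe, with its other probes at 0.25 and 0.56. The median difference of the 27 was in the other direction, at 0.57, or 0.44 without off replicate 3. In 5 of them every off liver lay above every control and in 1 below, beside 30.3% of all genes whose groups did not overlap. Csf3r and Ddx58 did not pass without off replicate 3 (adjusted p = 0.0879 and 0.114), and Csf3r, Retnlg and Ddx58 did not with slide as a random block. None of 18 Kupffer cell and macrophage, 15 T and NK cell, 10 B and plasma cell, 22 stellate cell and matrix or 8 erythroid markers passed, with medians between -0.63 and 0.27. Of 16 endothelial markers only Lyve1, a hyaluronan receptor of the liver sinusoid, passed. It read -0.04, -0.63 and -0.63 in the off livers, against -3.01, -2.30 and -2.62 in the controls, with no overlap (2.21 ± 0.40 (SE), adjusted p = 0.00838), while the median of the endothelial list was 0.02. A second Lyve1 probe differed by 0.37 and did not pass, and its groups overlapped. None of the 7 adipose, 9 exocrine pancreas, 9 intestine, 8 skeletal muscle and 7 kidney markers measured passed with all 3 off livers.

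Of 17 p53 targets, 2 rose and 3 fell, counting Trp53 itself, and the median difference was -0.11. Cdkn1a, the cyclin kinase inhibitor p21, read 2.72, 1.81 and 1.18 in the off livers, against -0.69, 0.15 and -1.33 in the controls. The groups did not overlap, and off replicate 3 was the lowest of the off livers (2.53 ± 0.59 (SE), adjusted p = 0.0216). Trp53inp1, a stress-induced cofactor of p53, rose by 1.67 ± 0.44 (SE), adjusted p = 0.0324. In the other direction, the pro-apoptotic gene Bbc3 (PUMA) read -1.28, -1.21 and -1.79 in the off livers, against 0.59, 0.34 and 0.20 in the controls, a difference of -1.80 ± 0.31 (SE), adjusted p = 0.00656. It passed whichever array was left out, but with scan day as a block its difference was 0.77. Trp53 fell by 0.86 (adjusted p = 0.0188), although by the sample channel alone its difference was 0.29 and did not pass. A second Trp53 probe differed by -0.11 and did not pass. Plk2, a kinase that p53 induces, fell by 1.59 (adjusted p = 0.0264). Of 20 clock genes, 3 rose and none fell, with a median difference of 0.38. Per1, a repressor of the clock that glucocorticoids also induce, read -0.02, -0.36 and -0.43 in the off livers, against -1.77, -0.92 and -1.42 in the controls (1.10 ± 0.30 (SE), adjusted p = 0.0359). Per2 rose by 1.38 (adjusted p = 0.0276) at its brightest probe and differed by -0.68 at its other probe, which did not pass. Usp2, a rhythmic deubiquitinase, read 0.92, 1.48 and -0.11 in the off livers, against -0.11, -2.11 and -1.97 in the controls. Off replicate 3 and control 1 both stood at -0.11 there, and the difference was 2.16 ± 0.55 (SE), adjusted p = 0.0279. Nr1d1, a repressor within the clock, was lower in each off liver than in each control, with a difference of -1.79 and an adjusted p of 0.0846. The times of day at which the livers were taken are not given in the sources used here. Lpin1, a fasting-induced phosphatase of lipid synthesis, read 2.08, 1.29 and -0.11 in the off livers, against -1.46, -1.12 and -1.59 in the controls (2.48 ± 0.62 (SE), adjusted p = 0.0276), and with Cdkn1a and Per1 made up the 3 rises among 17 glucocorticoid and fasting genes. Plk2 and Per1 did not pass without off replicate 3 (adjusted p = 0.0696 and 0.053). With slide as a random block Cdkn1a, Trp53inp1, Plk2, Per1, Per2, Usp2 and Lpin1 did not pass.

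Of 18 heat shock genes, 4 rose and none fell, and the median difference was 0.25. Dnaja1, a cochaperone of HSP70, read -0.28, -0.09 and 0.09 in the off livers, against -1.31, -0.77 and -1.43 in the controls. No off liver overlapped a control (1.08 ± 0.21 (SE), adjusted p = 0.0121). Chordc1, a cochaperone of HSP90, read 0.46, 0.82 and 0.42 in the off livers, against -0.75, -0.46 and -0.52 in the controls (1.15 ± 0.27 (SE), adjusted p = 0.0222). Bag3, which links HSP70 to autophagy, rose by 0.82 ± 0.21 (SE), adjusted p = 0.0291, and Dnajb1 by 0.87 ± 0.26 (SE), adjusted p = 0.0467. At their other probes Chordc1, Bag3 and Dnajb1 differed by 0.51, 0.25 and 0.67 and did not pass. The other probes of Dnaja1 differed by 1.10 and 1.37, and both passed. The classical inducible genes Hspa1a and Hspa1b differed by -0.24 and 0.43 and did not pass, and Hspa1a read 0.74, 0.41 and 0.66 in the off livers, against -2.46, 2.24 and 2.75 in the controls. Heat shock factor 1 acts through the heat shock element, whose core pair of inverted repeats is GAANNTTC, with N for any base. It was searched for on both strands, on which it reads the same, in the 300 bases from 250 before to 50 after the start of each gene given by RefSeq (GRCm38.p6). Of 18 genes, 14 had a promoter in that table and 10 held the motif, 3 of the 4 that rose and 7 of the other 10, against 7.86% of 32851 promoters. The promoters of the 3 that rose and held it are shown with the motif in capitals, Dnaja1 at chr4:40722218-40722517 (plus strand), which is 1 of its 3 entries, Chordc1 at chr9:18292017-18292316 (plus strand) and Bag3 at chr7:128523333-128523632 (plus strand).
Dnaja1: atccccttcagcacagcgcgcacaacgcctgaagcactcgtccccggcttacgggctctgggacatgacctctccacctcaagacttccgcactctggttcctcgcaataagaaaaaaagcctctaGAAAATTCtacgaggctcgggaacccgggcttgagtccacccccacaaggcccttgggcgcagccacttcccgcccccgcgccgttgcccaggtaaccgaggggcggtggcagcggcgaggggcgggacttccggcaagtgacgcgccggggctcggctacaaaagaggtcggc
Chordc1: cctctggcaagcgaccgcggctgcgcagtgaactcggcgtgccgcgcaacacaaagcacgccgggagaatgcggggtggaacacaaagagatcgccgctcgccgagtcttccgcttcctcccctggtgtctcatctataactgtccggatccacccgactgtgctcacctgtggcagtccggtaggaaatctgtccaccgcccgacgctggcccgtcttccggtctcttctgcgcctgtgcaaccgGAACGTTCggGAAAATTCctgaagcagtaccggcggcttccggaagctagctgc
Bag3: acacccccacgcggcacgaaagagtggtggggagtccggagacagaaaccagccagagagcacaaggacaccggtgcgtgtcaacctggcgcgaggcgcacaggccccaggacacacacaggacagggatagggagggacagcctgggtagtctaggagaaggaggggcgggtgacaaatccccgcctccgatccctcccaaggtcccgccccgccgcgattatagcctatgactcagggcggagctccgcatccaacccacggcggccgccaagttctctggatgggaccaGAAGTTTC
The motif began 124 bases before the start in Dnaja1, 4 before and 6 after it in Chordc1, and 42 after it in Bag3. A match of letters is a description and not a bound site. Dnajb1 did not pass without off replicate 3 (adjusted p = 0.06), and with slide as a random block only Dnaja1 of the 4 did. With scan day as a block the differences of Dnaja1, Bag3 and Dnajb1 were -0.24, -0.47 and -0.21.

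In the endoplasmic reticulum, 2 of 22 folding genes rose and 2 fell, with a median difference of -0.16. Dnajb9, a cochaperone of the unfolded protein response, read 0.75, 0.58 and 0.77 in the off livers, against -1.20, -0.92 and -0.48 in the controls (1.57 ± 0.29 (SE), adjusted p = 0.00925), and it passed whichever array was left out, while with scan day as a block its difference was -0.94. Herpud1, of the degradation machinery, rose by 0.77 (adjusted p = 0.048). Pdia4, a disulfide isomerase, read -0.06, 0.41 and -0.21 in the off livers, against 0.83, 1.41 and 0.95 in the controls (-1.02 ± 0.23 (SE), adjusted p = 0.02). Hyou1, a large chaperone, fell by 1.69 (adjusted p = 0.0268) at its brightest probe, while its other probe was higher by 1.61 and did not pass. Herpud1, Hyou1 and Pdia4 did not pass without off replicate 3 (adjusted p = 0.0781, 0.0508 and 0.053), and with slide as a random block Herpud1 did not. Hspa5 (BiP), the main chaperone of the compartment, differed by 0.13 (adjusted p = 0.816). Of 34 proteasome subunits Psmd3 fell, by 0.90 (adjusted p = 0.0103), and no other passed with all 3 off livers.

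**Figure D3:**
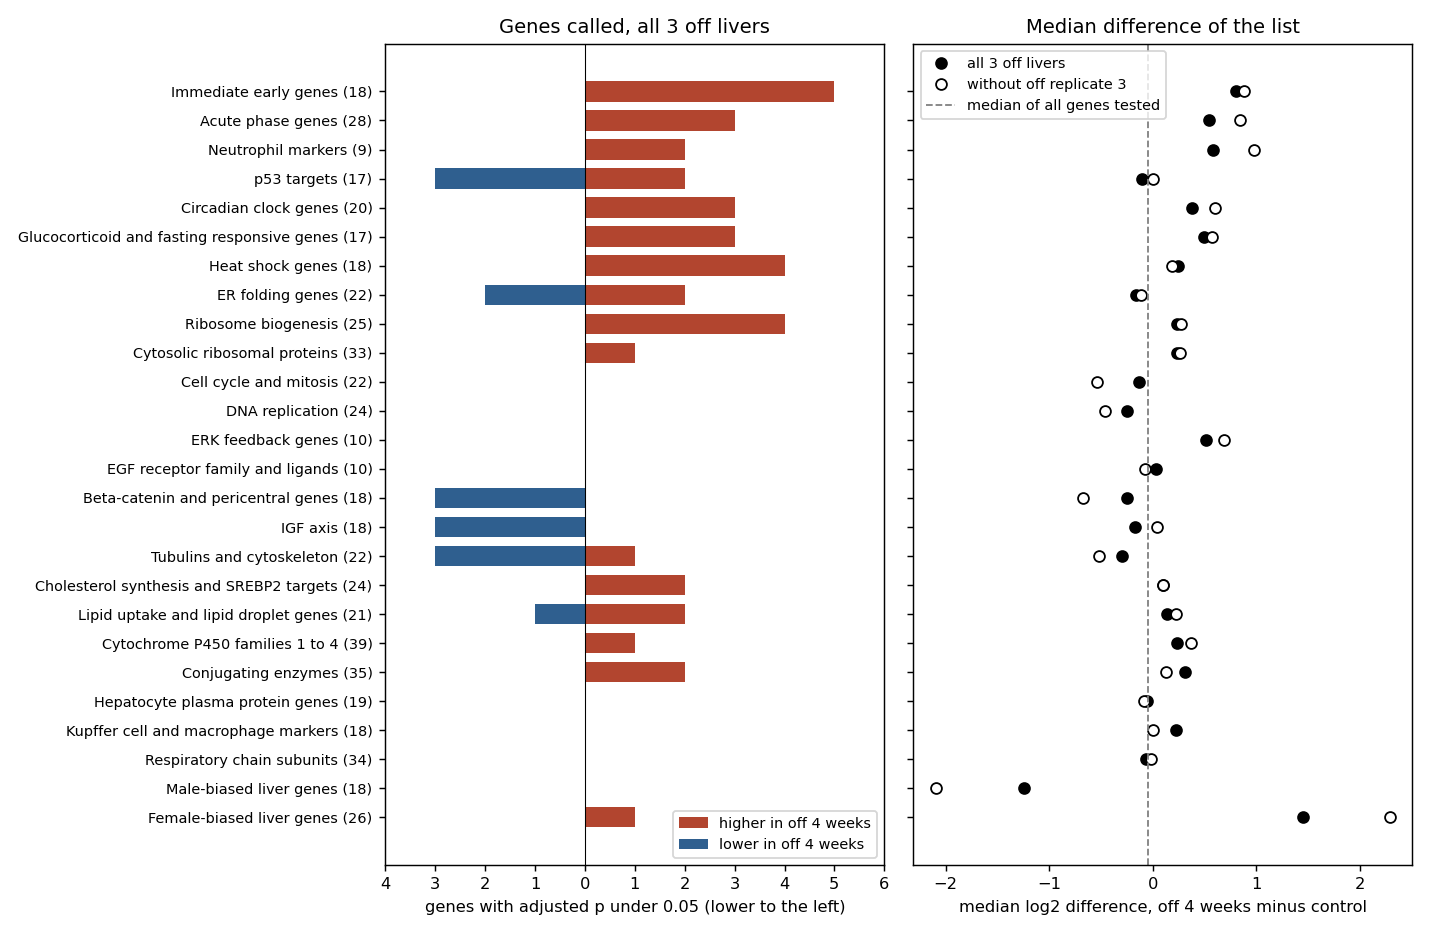
Left, number of genes in each list with an adjusted p under 0.05 that were higher (right of 0) or lower (left of 0) in the off livers than in the controls, with the number measured in brackets. Right, median log2 difference of each list with all 3 off livers (filled) and without off replicate 3 (open), beside the median of all genes tested (-0.05, dashed). Immediate early genes have 5 rises, and the cell cycle, ERK feedback, plasma protein and Kupffer cell lists have no calls.

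Genes of the pericentral zone, where β-catenin signalling is active, gave 3 falls and no rise among 18, with a median difference of -0.25, or -0.67 without off replicate 3. Glul, glutamine synthetase of the hepatocytes around the central vein, read -0.71, -0.77 and -0.83 in the off livers, against 0.69, 0.13 and 0.65 in the controls. The off livers lay within 0.13 of each other and below every control (-1.26 ± 0.32 (SE), adjusted p = 0.03), although another Glul probe differed by 0.10. Nkd1, a feedback inhibitor of the pathway, read -1.77, -1.62 and -1.10 in the off livers, against 0.02, -0.15 and 0.48 in the controls (-1.61 ± 0.37 (SE), adjusted p = 0.0194). Notum, a secreted inhibitor of WNT ligands, fell by 0.92 (adjusted p = 0.0331). Glul and Notum did not pass without off replicate 3 (adjusted p = 0.0631 and 0.0686), and the 2 falls there were Nkd1 and Cyp1a2 (adjusted p = 0.0222 and 0.0423). Axin2 and Lgr5, targets of the same pathway, differed by 0.10 and -1.30 and did not pass. In the IGF axis 3 of 18 genes fell: Igfbp5, an IGF-binding protein, by 1.74, and Stat5a and Stat5b, the factors through which growth hormone acts on liver, by 1.22 and 0.76 (adjusted p = 0.0293, 0.0446 and 0.0365). None of the 3 passed without off replicate 3, and a second Stat5b probe was higher by 1.27 and did not pass. Dlk1, an oncofetal marker, read 1.00, 1.45 and 0.00 in the off livers, against 2.42, 2.23 and 2.56 in the controls, lower in all off livers (-1.59 ± 0.33 (SE), adjusted p = 0.0137), and was the 1 fall among 15 oncofetal genes. Afp, the fetal albumin, differed by 0.17 (adjusted p = 0.886). Nr5a2 (LRH-1), a nuclear receptor of bile acid and lipid genes, fell by 1.39 (adjusted p = 0.018) as the 1 call among 18 hepatocyte transcription factors with all 3 off livers. Without off replicate 3 it did not pass (adjusted p = 0.0518), and Prox1, a regulator of hepatocyte growth, rose as the 1 call (1.51 ± 0.23 (SE), adjusted p = 0.00428). With slide as a random block Glul, Notum, Igfbp5, Stat5a and Stat5b did not pass. None of 19 plasma protein genes and none of 34 respiratory chain subunits passed, with medians of -0.06 and -0.06.

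Cyp3a13, a cytochrome P450 of drug and steroid oxidation, read -1.23, -1.39 and -0.30 in the off livers, against -3.13, -3.11 and -3.13 in the controls. The controls lay within 0.03 of each other and the off livers stood well above them (2.15 ± 0.29 (SE), adjusted p = 0.00269), and it was the only call with all 3 off livers among 39 genes of P450 families 1 to 4. Alas1, the first enzyme of heme synthesis, read 0.05, 0.30 and 0.62 in the off livers, against -2.11, -1.64 and -1.66 in the controls (2.12 ± 0.61 (SE), adjusted p = 0.0438), while Alad, the next enzyme, fell by 0.74 (adjusted p = 0.0341) at one probe and differed by 0.45 at another. Sult1d1 and Ugt2b34, conjugating enzymes, rose by 2.15 and 1.06 (adjusted p = 0.0243 and 0.0428), as 2 of 35. Slc10a1 (NTCP), the main bile acid importer, rose by 1.25 ± 0.31 (SE), adjusted p = 0.0276. Cyp7a1, the rate-limiting enzyme of bile acid synthesis, read 1.86, 2.35 and 0.21 in the off livers, against 0.05, -0.56 and -0.75 in the controls, and passed only without off replicate 3 (2.52 ± 0.65 (SE), adjusted p = 0.0355). Sqle, squalene epoxidase of cholesterol synthesis, read 0.90, 1.04 and 0.31 in the off livers, against -0.15, -0.65 and -0.83 in the controls (1.29 ± 0.32 (SE), adjusted p = 0.0252), and with Nsdhl gave 2 rises among 24 genes of that pathway. Plin4 and Cd36, a lipid droplet coat and a fatty acid transporter, rose by 2.09 and 1.92, and the coat protein Plin3 fell by 1.00 (adjusted p = 0.04, 0.0418 and 0.0209). Cpt1a, the gate of mitochondrial fatty acid oxidation, rose by 1.05 (adjusted p = 0.047) with a second probe at -0.02, and Acadvl, an enzyme further along, fell by 0.54 (adjusted p = 0.0432). Elovl5, a fatty acid elongase, fell by 0.89 (adjusted p = 0.0475). Gpam, which starts triglyceride synthesis, read -2.59, -2.49 and -0.36 in the off livers, against -0.53, -0.09 and -0.66 in the controls, with off replicate 3 among the controls, and fell only without it (-2.11 ± 0.28 (SE), adjusted p = 0.00147). Of 28 glycolysis and gluconeogenesis genes Pfkm, a phosphofructokinase, fell by 0.64 (adjusted p = 0.0435). Arg1, arginase of the urea cycle, rose by 0.98 (adjusted p = 0.03). Among all genes 4.04% were higher and 4.00% lower, so the few calls in these metabolic lists are not read as a change of a pathway. Without off replicate 3 Alas1, Alad, Ugt2b34, Slc10a1, Nsdhl, Cd36, Cpt1a, Acadvl, Elovl5 and Arg1 did not pass, with adjusted p-values between 0.0653 and 0.14. With slide as a random block Sqle, Nsdhl, Plin4, Cd36, Alas1, Ugt2b34, Cpt1a, Acadvl, Elovl5, Arg1 and Pfkm did not pass.

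Of 22 tubulin and cytoskeleton genes, 3 fell and 1 rose, with a median difference of -0.30. Actb, β-actin, read -0.04, -0.19 and -0.64 in the off livers, against 1.10, 1.62 and 2.25 in the controls. Every off liver lay more than 1 unit below every control, and the difference was -1.95 ± 0.30 (SE), adjusted p = 0.00527. It was negative under all 24 alternatives tried, between -2.23 and -1.29, and missed the threshold with the 2 groups alone (adjusted p = 0.0926) and when scan day was blocked (0.394). Tubb3 and Myh9 fell by 1.17 and 1.21 (adjusted p = 0.0237 and 0.0348), Myh9 at 1 of its 2 probes, and Tpm4 rose by 0.58 (adjusted p = 0.0479). None of these 3 passed without off replicate 3 (adjusted p = 0.0619, 0.108 and 0.0938), and Myh9 and Tpm4 did not with slide as a random block.

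By the rule that ranks named genes by the size of the difference, the 12 that rose most with all 3 off livers were Fos, Lepr, Snora69, Sft2d1, Kbtbd8, Snhg1, Kctd4, Saa3, Ect2, Btg3, Cdkn1a and Lpin1, and those that fell most included Acsm2, Cyp26b1, Hoxb9, Plcb4, Apol10a, Rasgef1a, Sec1, Dnajc5b, Spsb4, Prrt2 and Rps6kl1. Lepr, the leptin receptor, Sft2d1 and Kctd4 were not well above background in any control, which leaves a bound: by Cy3 signal they were at least 1.73-fold, 1.78-fold and 1.39-fold higher in the off livers. These 3 genes entered the test only through the off livers, so their calls are not read as support for a rise. Without off replicate 3 the bounds were 2.24-fold, 1.32-fold and 1.38-fold. Sft2d1 read -3.07, -3.51 and -0.32 in the off livers, so its rise leaned on off replicate 3. A second Lepr probe differed by 1.335 and did not pass, with off replicate 3 at -2.77, below every control. Snora69, a small nucleolar RNA, read 1.43, 2.53 and 1.14 in the off livers, against -1.62, -1.14 and -1.09 in the controls, with 1 control well above background (2.98 ± 0.50 (SE), adjusted p = 0.00656). Btg3, an antiproliferative gene, read 0.07, -0.09 and 0.23 in the off livers, against -2.21, -2.48 and -2.70 in the controls (2.53 ± 0.52 (SE), adjusted p = 0.0137). Kbtbd8, an adaptor for a ubiquitin ligase, rose by 2.88 ± 0.62 (SE), adjusted p = 0.0148, with 1 control well above background. Ect2, an exchange factor needed for cell division, rose by 2.58 ± 0.56 (SE), adjusted p = 0.0158, with 1 control not well above background. Acsm2, a medium-chain acyl-CoA synthetase, read -1.09, -2.28 and -0.40 in the off livers, against 2.64, 2.10 and 3.09 in the controls (-3.87 ± 0.98 (SE), adjusted p = 0.0277). Cyp26b1, which breaks down retinoic acid, read -0.19, -2.38 and -3.40 in the off livers, against 0.31, 1.95 and 1.81 in the controls, with off replicate 3 the lowest (-3.35 ± 0.79 (SE), adjusted p = 0.0216). Spsb4, an adaptor of ubiquitin ligases, and Rasgef1a, an exchange factor of small GTPases, fell, with differences of -2.39 ± 0.38 (SE), adjusted p = 0.00565, and -2.82 ± 0.38 (SE), adjusted p = 0.00269. Rasgef1a was dim, well above background in 2 off livers and 3 controls. Its mean normalized log2 Cy3 signal was 6.78 in the off livers and 6.91 in the controls. By the sample channel alone, without off replicate 3, its difference turned in sign. Plcb4, a phospholipase, Sec1, a fucosyltransferase, and Prrt2 were far lower in off replicates 1 and 2 than in off replicate 3. Their values in off replicate 3 were -0.19, -0.42 and 0.00, and in off replicate 2 they were -3.62, -3.84 and -2.79. Each was well above background in 2 off livers, and in 2, 1 and 1 of the controls. Sft2d1, Cyp26b1, Hoxb9 and Apol10a did not pass without off replicate 3 (adjusted p = 0.0866, 0.0666, 0.053 and 0.0879). With slide as a random block Lepr, Acsm2, Hoxb9 and Prrt2 did not.

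Sex-biased genes of the liver moved with the Xist pattern of the arrays. The median of 18 male-biased genes was -1.91, -1.96 and 0.36 in the off livers, against -1.19, 0.80 and 0.59 in the controls, and that of 26 female-biased genes was 0.43, 0.82 and -1.69 in the off livers, against 0.44, -2.68 and -2.74 in the controls. Off replicates 1 and 2 and control 1, in which Xist was high, were low for the male-biased genes and high for the female-biased genes, and the other 3 livers were the reverse. As groups the median differences were -1.24 and 1.45, yet none of the male-biased genes and 1 of the female-biased genes, Cd36, passed with all 3 off livers. Cd36 did not pass without off replicate 3 (adjusted p = 0.139), nor by limma did any other female-biased gene, 5 of which had an unadjusted p under 0.05, and 1 male-biased gene did. Among the Xist-high livers alone, off replicates 1 and 2 less control 1, the medians were -0.60 and 0.29, and for off replicate 3 less controls 2 and 3 they were 0.17 and 0.50. Cspg5, that male-biased gene, read -3.30, -2.96 and -0.23 in the off livers, against -0.44, 2.45 and 2.14 in the controls and passed without off replicate 3 (-4.51 ± 1.16 (SE), adjusted p = 0.0352). The 5 major urinary protein genes measured had a median of -1.40, -1.87 and 0.24 in the off livers, against -0.14, 0.63 and 1.12 in the controls, and none passed. Off replicates 1 and 2 less control 1, all with high Xist, gave a median of -1.34 in these genes. With a score of Xist and Y-linked genes as a covariate 1690 genes passed, of which 1384 had passed without it, and without off replicate 3 it was 532, of which 438. Of the 88 named genes that passed with all 3 off livers, 82 still passed with that score. Of 39 named genes that passed without off replicate 3, 22 still did and 17 did not, and those 17 are not marked above. Without off replicate 3 both off livers were high in Xist, against 1 of 3 controls.

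**Figure D4:**
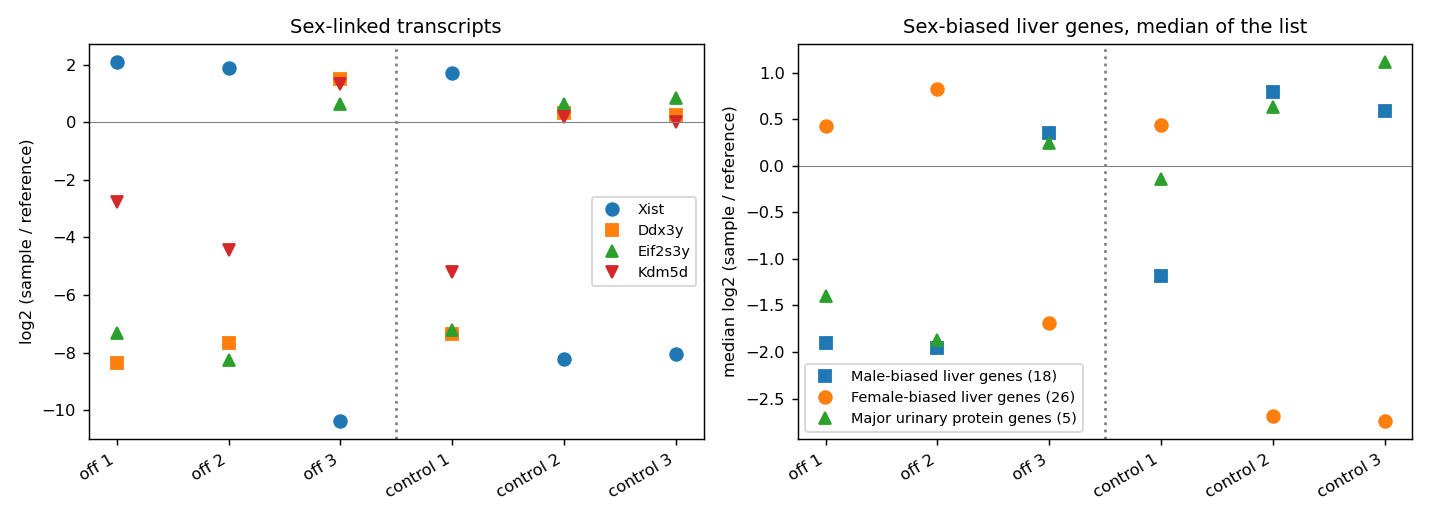
Left, log2 ratio to the reference of Xist and 3 Y-linked genes in each off liver and each control. Right, the median log2 ratio of 18 male-biased, 26 female-biased and 5 major urinary protein genes in the same livers. Off replicates 1 and 2 and control 1 are high in Xist and low in the male-biased genes, and off replicate 3 and controls 2 and 3 are the reverse.

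The other livers on the slide of off replicates 1 and 2 were those in which TGFα alone had been turned off for 4 weeks (replicates 2 and 3). Between off replicates 1 and 2 and these, 18 of 18140 genes passed (0.0992%), 17 of them higher in the off livers, and with all 3 off livers none of 18142 passed by limma (1563 at an unadjusted p under 0.05). Several of the genes named above were as follows in the TGFα livers: Fos read 1.74 and 1.45 there, Cdkn1a 1.79 and 2.05, Lpin1 1.29 and 1.67, Retnlg 2.82 and 2.72 and Bbc3 -1.57 and -1.65. Others stood apart from off replicates 1 and 2: Saa3 read 0.96 and 0.55, against 2.87 and 2.34, and Cxcl1 0.94 and 1.16, against 4.87 and 4.36. Socs3 read -1.13 and -0.77, against 1.56 and 1.43, and Per1 1.36 and 1.64, against -0.02 and -0.36. These genes were picked after their values were seen. Xist read 0.63 and 0.62 in the TGFα livers, above the reference as in off replicates 1 and 2. Among the 18, Nfkbiz read 1.92 and 2.31 in off replicates 1 and 2, against 0.45 and 0.30 in the TGFα livers (difference 1.74, adjusted p = 0.0172), and Junb 0.55 and 0.76, against -0.74 and -0.99 (difference 1.52, adjusted p = 0.0474). Phlda1, induced by ERK signalling, read 1.57 and 1.08 in off replicates 1 and 2, against -0.94 and -1.61 in the TGFα livers and 0.24 to 0.89 in the controls (difference 2.60, adjusted p = 0.0474). Ccno, a cyclin-related gene of multiciliated cells, read 0.76 and 0.75 in off replicates 1 and 2, against -0.77 and -1.06 in the TGFα livers (difference 1.68, adjusted p = 0.0444). Nfkbiz, Phlda1 and Ccno were picked from the 18 after their values were seen. Against livers 12 weeks after both transgenes had been turned off, on other slides, 1049 genes passed (5.78%), and 950 without off replicate 3 (5.24%). Against livers with c-Myc alone turned off for 4 weeks, also on other slides, 1006 of 18140 genes passed (5.55%).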

How the data were processed

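Agilent two-colour arrays carried Cy3-labelled liver RNA against a Cy5-labelled reference pool, per the labels. Per the file headers, the intensity values were extracted, background-corrected and dye-normalized with Agilent Feature Extraction 9.1.3.1, and the deposited log10 ratio is red over green. Its sign was turned and it was put on a log2 scale here. The deposited log2 values of the series matrix were an alternative. Control spots and outlier spots were left out. A probe was kept if its Cy3 signal stood clear of background (gIsWellAboveBG) on 3 or more of the 6 arrays, a filter set after the data were seen, and the brightest probe stood for each gene, which left 18142 genes. Calls are those of that probe, and other probes are given for some genes only. limma 3.58.1 in R 4.3.3 (lmFit and eBayes) was fitted to 20 liver arrays of 7 groups, without 1 liver on a slide whose reference channel differed, with Benjamini-Hochberg adjustment at 0.05. The script was tested on simulated data. Same-numbered replicates did not deviate together, so they were not paired. The 12 largest rises and falls whose groups did not overlap, up to 4 members of each list by p, and Myc and Tgfa were named by rule; well-known members that did not pass, and others so marked, were named after their values were seen. Some results are not reported here. Members and lists were chosen with earlier results of these data known. The number of arrays limits the precision.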

Additional observations from a re-analysis of the deposited data

How the results depend on the processing

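Counts of genes that passed are given with all 3 off livers first and then without off replicate 3. Against 1458 and 1079, normexp with loess gave 2742 and 2658, array weights 4879 and 4694, all 34 arrays 352 and 146, all arrays but the slide with another reference 508 and 175, the 2 groups alone 0 (4160 at an unadjusted p under 0.05 by limma) and 402, and slide as a random block 733 and 630. A fold of at least 2 as a further limit gave 877 with all 3. The sample channel alone gave 1646, of which 39.9% were higher against 50.3% of 1458, and 1927 without off replicate 3, no filter on dim probes 1648 and 1838, and the sex score 1690 and 532. The replicate block gave 1333 and 834; numbers did not pair the samples, and calls it lost are no sign of a weaker effect. Leaving out 1 array gave 195 to 1777 genes, and 32 to 1477 without off replicate 3. With scan day as a block in all 34 arrays, added after the data were seen, 126 genes passed (46.0% higher). The block for its own scan day took up off replicate 3, so leaving that array out could not change this count. By the sample channel alone Trp53 turned to 0.29, and without off replicate 3 Sec1 to 0.34, Zfp536 to 0.61, Prrt2 to 0.56 and Rasgef1a to 0.019. With scan day as a block the differences that turned in sign were Sft2d1 -0.90, Plcb4 2.57, Apol10a 0.12, Sec1 0.95, Prrt2 0.42, Rps6kl1 0.93, Steap4 -1.01, Trp53inp1 -2.84, Bbc3 0.77, Dnaja1 -0.24, Bag3 -0.47, Dnajb1 -0.21, Dnajb9 -0.94, Herpud1 -2.07, Stat5b 0.10, Sqle -2.62, Nsdhl -1.93, Ugt2b34 -1.73, Slc10a1 -1.11, Cpt1a -0.86, Dlk1 3.35, Psmd3 0.13, Slc38a2 -0.97, Ces1g -1.42, Mrpl11 0.62, and without off replicate 3 also Cyp7a1 -1.47, Thrsp -0.53, Taldo1 0.48; the cause was not tested. Scan day as a block could not be fitted to the liver arrays alone. Of 88 named genes that passed, 83 also passed with normexp and loess and 14 without control 3. Dim probes, saturated spots and 3 arrays a group limit what these values can show.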
